A study of Mus musculus with 91 samples.

Results

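The 10 genes described here, *Fos*, *Fosb*, *Junb*, *Arc*, *Egr1*, *Nr4a1*, *Npas4*, *Ier2*, *Bdnf* and *Homer1*, are immediate early and other activity-induced genes. They were taken by name, and each was found as 1 of the 34745 rows of the deposited tables. Their RNA was measured in single pyramidal neurons (Pyrs) of layer 5 (L5) in the primary visual cortex (V1) by Patch-seq, in which a neuron is first recorded with a patch pipette and its contents are then drawn up and sequenced. The neurons were recorded in acute brain slices. The study used wild-type C57 and transgenic mice of 8 to 12 weeks and of both sexes, and its methods name no genotype for the Patch-seq neurons. The study set 47 Pyr←LP neurons, a type whose input comes from the lateral posterior thalamic nucleus (LP), beside 44 Pyr←ORBvl neurons, whose input comes from the ventrolateral orbitofrontal cortex (ORBvl). A classifier of the study assigned the type from the slope of the hyperpolarization-activated current (Ih), so the labels rest on electrophysiology and not on a direct test of the input of each sequenced neuron. No mouse is named for any neuron, and no treatment differed between the groups. The only grouping below the type is a recording prefix in the names of the neurons, whose meaning is not given. The names hold 20 spellings of it, and spellings that differ only by a hyphen were read as 1 prefix, which left 17 prefixes, 14 of them with both types. All neurons had been through slicing, whole-cell recording and aspiration of the soma, and no neuron without that history was sequenced for comparison.

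Immediate early genes are transcribed within minutes of strong synaptic input, because the factors that drive them, among them CREB and SRF, are already present in the nucleus and are switched on by calcium and kinase signalling. One class of products, the transcription factors Fos, FosB, JunB, Egr1, Nr4a1 and Npas4, acts on later genes. Another class acts at the synapse, where Arc promotes the internalization of AMPA receptors, the short form of Homer1 interferes with the scaffold made by the long forms, and BDNF is a secreted neurotrophin. In the visual cortex these genes are widely used as markers of recent activity.

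CREB binds the cAMP response element TGACGTCA, often at a half-site of it. Of the 10 genes, 7 had at least 1 start site in the RefSeq promoter table (build GRCm38.p6), with 14 start sites in all, of which *Bdnf* has 7. In the 250 bases before these starts, searched on both strands, the complete element was found before none of the 14 member starts and in 1.55% of all 32851 windows. The half-site TGACG, which is part of the complete element, was found for all 7 genes, against 19.8% of all 27025 genes with a window. By start, it stood before 7 of the 14 member starts, against 17.8% of all windows. At least 2 copies stood before 4 member starts, against 3.90% of all windows, and those 4 windows are shown because they hold the most copies. Capitals mark the half-site, which reads cgtca where it lies on the other strand. *Fos* is on the plus strand (chr12:85473640-85473889), *Nr4a1* on the plus strand (chr15:101266596-101266845), *Npas4* on the minus strand (chr19:4989972-4990221) and *Homer1* on the plus strand (chr13:93303507-93303756), all upstream of the annotated transcript start that the table uses.
Fos: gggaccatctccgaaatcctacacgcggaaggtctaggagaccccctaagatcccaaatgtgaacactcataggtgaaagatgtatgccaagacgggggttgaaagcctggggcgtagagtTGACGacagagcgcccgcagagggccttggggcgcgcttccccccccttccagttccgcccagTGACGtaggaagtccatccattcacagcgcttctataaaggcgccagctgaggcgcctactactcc
Nr4a1: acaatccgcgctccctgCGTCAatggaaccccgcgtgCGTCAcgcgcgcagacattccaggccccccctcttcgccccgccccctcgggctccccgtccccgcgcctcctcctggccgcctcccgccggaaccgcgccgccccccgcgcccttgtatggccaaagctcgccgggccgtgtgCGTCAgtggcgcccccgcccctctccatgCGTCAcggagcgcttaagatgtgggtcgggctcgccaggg
Npas4: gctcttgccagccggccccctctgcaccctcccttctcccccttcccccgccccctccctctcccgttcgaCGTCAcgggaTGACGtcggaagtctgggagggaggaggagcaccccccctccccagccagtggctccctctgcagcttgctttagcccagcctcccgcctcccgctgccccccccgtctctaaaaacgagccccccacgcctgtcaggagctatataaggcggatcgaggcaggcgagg
Homer1: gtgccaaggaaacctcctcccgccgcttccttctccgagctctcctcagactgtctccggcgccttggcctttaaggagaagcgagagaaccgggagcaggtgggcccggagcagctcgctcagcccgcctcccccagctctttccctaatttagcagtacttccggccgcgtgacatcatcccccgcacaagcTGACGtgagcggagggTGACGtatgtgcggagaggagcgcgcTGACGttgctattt
The *Fos* window holds 2 half-sites, of which the one nearer the start begins 66 bases before it, within the letters tgacgta. The *Npas4* window holds 2, the *Homer1* window 3 and the *Nr4a1* window 4. *Fosb*, *Junb* and 1 of the *Bdnf* windows hold 1 each. The CArG box, the site of SRF, was found in 1.47% of all windows and in none of the 14 member windows. These matches describe letters in a window of fixed length and not binding. In the same build, *Arc* lies at chr15:74669081-74672570, *Ier2* at chr8:84661331-84662852, *Junb* at chr8:84976909-84978748, *Fosb* at chr7:19302696-19310118 and *Bdnf* at chr2:109674700-109727043, and 0 other RefSeq genes overlap any of the 10 members.

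A gene was counted as detected in a neuron when it had at least 1 read, and levels within a gene are given as CPM, the count scaled to 1000000 counts in the neuron. *Egr1*, a zinc-finger transcription factor, was detected in 46 of 47 Pyr←LP and 43 of 44 Pyr←ORBvl neurons. *Fos*, the classical partner of Jun proteins in the AP-1 dimer, was detected in 44 of 47 and 44 of 44, and *Junb*, a Jun protein of the same dimer, in 43 of 47 and 44 of 44. *Arc* was detected in 39 of 47 and 40 of 44 neurons. These 4 genes therefore gave reads in most neurons of both types. *Ier2*, a nuclear protein of the early response, was detected in 35 and 30 neurons, *Nr4a1*, an orphan nuclear receptor, in 30 and 29, and *Homer1* in 27 and 31. The remaining 3 genes gave reads in fewer neurons. *Fosb* was detected in 16 Pyr←LP and 17 Pyr←ORBvl neurons, *Npas4*, a factor known for its dependence on neuronal calcium entry, in 16 and 15, and *Bdnf* in 18 and 25.

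Part of these detections rested on very few reads. Between 3 (*Fosb*) and 17 (*Arc*) of the neurons that detected a member did so with 1 to 4 reads, and the number was 13 for *Fos* and 13 for *Junb*. With a minimum of 5 counts the median number of members per neuron went from 7 to 5 in Pyr←LP and from 7 to 6 in Pyr←ORBvl neurons. Of all 91 neurons, 72 had at least 100000 counts. So had 43 of the 58 neurons with no *Fosb* read and 46 of the 60 with no *Npas4* read, but only 19 of the 33 with no *Homer1* read and 21 of the 32 with no *Nr4a1* read. The 12 neurons with no *Arc* read had a median total of 150744 counts, and those with a read had 457823. Depth and detection thus moved together for some members, and the part of depth in the missing reads was not tested. Neurons with no *Bdnf* read had a median of 2924 detected genes and those with a read had 4188. When every neuron was thinned to 100000 counts, which left out 9 Pyr←LP and 10 Pyr←ORBvl neurons, *Npas4* was detected in 9 of 38 (23.7%; 95% Wilson interval 12.99 to 39.2%) and 13 of 34 (38.2%; 23.9 to 55.0%), against 34.04% and 34.09% before thinning. These intervals treat neurons as independent, although neurons share prefixes, and do not cover amplification, since the reads carry no molecular identifiers, so they are too narrow and no difference between the types is read from them.

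**Figure D1:**
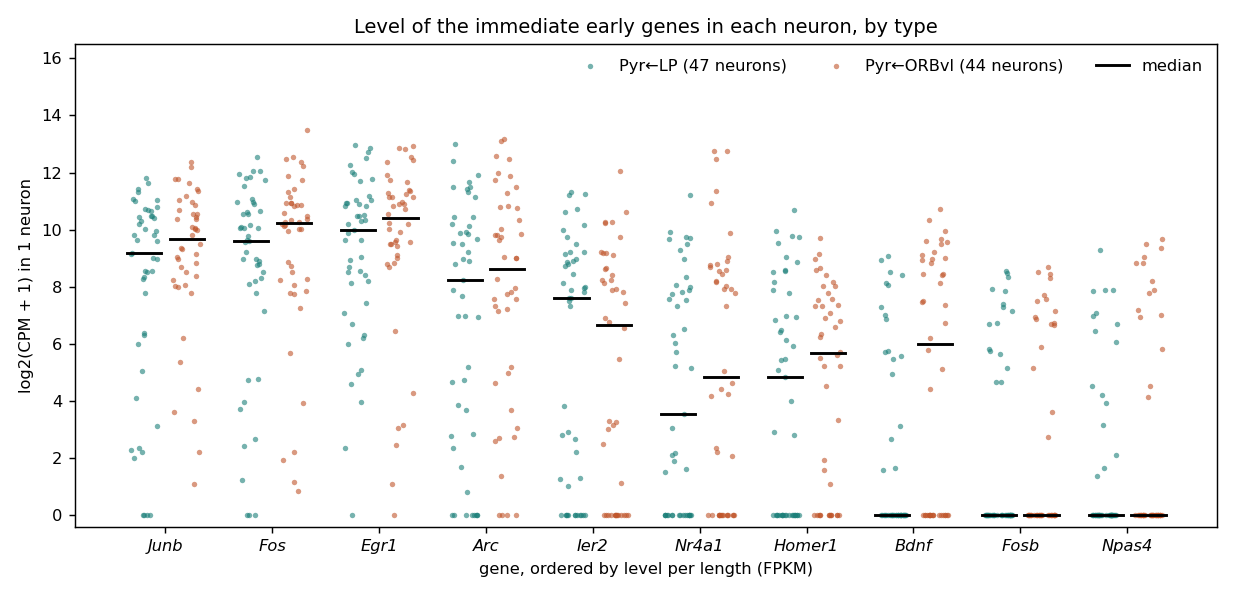
Each point is 1 neuron, on the scale log2(CPM + 1), for the 10 genes in order of level per length. Black lines are medians of the 47 Pyr←LP (green) and 44 Pyr←ORBvl (orange) neurons. The 2 types overlap for every gene, and *Fosb* and *Npas4* have a median of 0 in both.

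Levels varied widely from neuron to neuron within each type. *Fos* ranged from 0 to 5935 CPM in Pyr←LP neurons, with a median of 768, and from 0.820 to 11413 CPM in Pyr←ORBvl neurons, with a median of 1206. *Egr1* ranged from 0 to 8027 CPM (median 1021) and from 0 to 7732 CPM (median 1355). *Junb* ranged from 0 to 3596 CPM (median 588) and from 1.13 to 5252 CPM (median 818). The ranges of the types overlapped for these 3 genes, and the highest *Fos* and *Junb* values were in Pyr←ORBvl neurons. *Arc* reached 8275 CPM in Pyr←LP (median 302) and 9305 CPM in Pyr←ORBvl neurons (median 410). *Ier2* had medians of 196 and 101 CPM, *Nr4a1* of 10.8 and 28.1 CPM, and *Homer1* of 27.95 and 49.9 CPM. For *Bdnf* the median was 0 CPM in Pyr←LP and 63.3 CPM in Pyr←ORBvl neurons, with maxima of 542 and 1675 CPM. *Fosb* did not exceed 411 CPM and *Npas4* did not exceed 815 CPM in any neuron.

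Compared per length, with the authors' FPKM values averaged as log2(FPKM + 1) within each prefix, the order of levels over the 17 prefixes was *Junb* (7.43 ± 1.67, SD), *Fos* (6.94 ± 1.32), *Egr1* (6.55 ± 1.56), *Arc* (5.25 ± 1.86), *Ier2* (5.01 ± 1.76), *Nr4a1* (3.63 ± 2.09), *Homer1* (2.17 ± 1.16), *Bdnf* (2.07 ± 1.34), *Fosb* (1.90 ± 1.71) and *Npas4* (1.59 ± 1.31). No neighbours in this order differed by more than the SD of their difference between prefixes. *Egr1* and *Arc* came closest, with a mean difference of 1.30 and an SD of 1.30, and *Egr1* was the higher in 14 of 17 prefixes. *Junb* ranked 55th and *Fos* 90th by mean FPKM among the 18674 rows with any value, and *Ier2*, *Egr1*, *Arc* and *Nr4a1* ranked 140th, 156th, 170th and 238th. Only 1.27% of the rows lay above *Nr4a1*, the last of these 6 genes. *Bdnf* ranked 2144th, *Npas4* 2222nd, *Fosb* 3119th and *Homer1* 4705th. Gene counts do not separate the short, induced form of *Homer1* from its long forms, or the transcripts that *Bdnf* makes from its alternative promoters, and the FPKM of these genes depends on the length used for them.

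All 10 genes were detected together in 9 neurons, 4 Pyr←LP and 5 Pyr←ORBvl, and 7 neurons had 4 or fewer. The summed level of the 10 genes was between 657 and 28965 CPM per neuron, or 0.0657 to 2.90% of its counts. It was 4383 CPM at the median in Pyr←LP neurons, with a range of 657 to 22151, and 5389 CPM in Pyr←ORBvl neurons, with a range of 953 to 28965. Where a prefix held both types, Pyr←ORBvl neurons had the higher mean sum in 7 of 14 cases and Pyr←LP neurons in 7. The number of detected members was split in the same way, 7 to 7.

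The summed level also varied between recording prefixes. The prefix medians ranged from 1662 CPM in prefix 914 to 17596 CPM in prefix 823. All 6 neurons of prefix 823, 1 Pyr←LP and 5 Pyr←ORBvl, were at or above 11218 CPM. Prefix 902 had the second highest median, 11668 CPM, but its 7 neurons ranged from 1644 to 22151 CPM. In prefix 823, *Fos* (3577 CPM), *Junb* (2544 CPM), *Arc* (3603 CPM) and *Egr1* (3023 CPM) each had their highest prefix median, while *Fosb*, *Nr4a1* and *Ier2* had theirs in prefix 811. *Fos* had its lowest median in prefix 914, *Junb* (32.5 CPM) in prefix 810 and *Arc* (2.09 CPM) in prefix 907. Prefixes 810 and 907 hold only Pyr←LP neurons and prefix 811 only Pyr←ORBvl neurons, so prefix and type cannot be told apart there. What the prefixes share in mouse, slice or day is not stated, and the prefix differences were not tested.

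**Figure D2:**
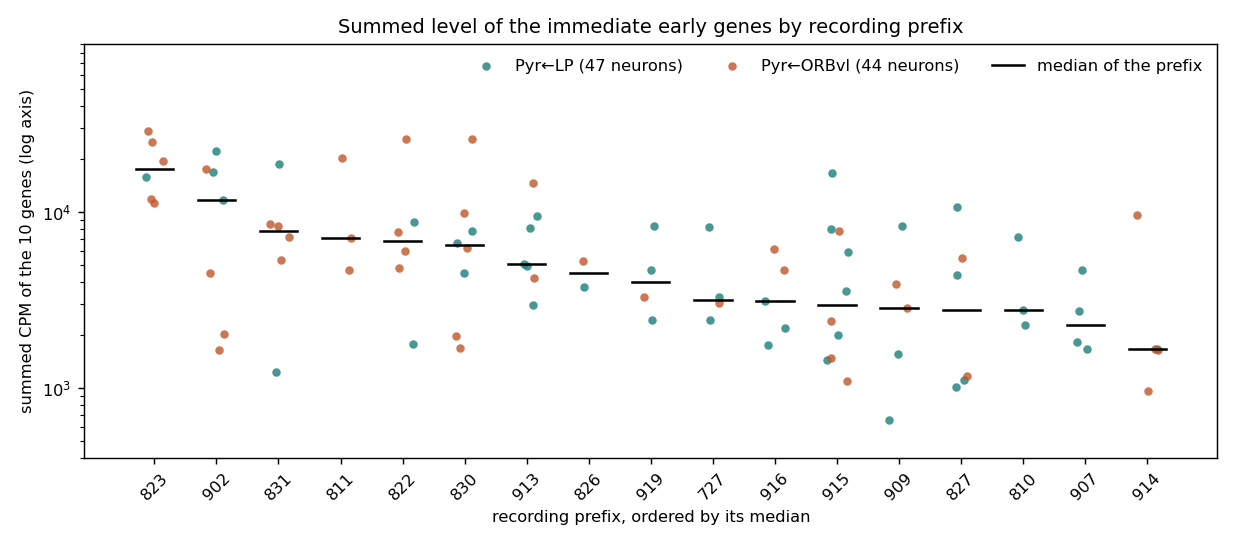
Each point is the summed CPM of the 10 genes in 1 neuron, on a log axis, by recording prefix; black lines are prefix medians. The 6 neurons of prefix 823 lie between 11218 and 28965 CPM, while prefixes such as 830 span 1680 to 25850 CPM.

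A pair of libraries stood apart from the rest. Pyr←ORBvl neurons 5 and 11, numbered in the order of deposit and from prefixes 822 and 823, shared most of the genes that either detected (Jaccard index, shared genes over all genes detected in either, 0.818), and the next highest index among the 4095 pairs was 0.505. Their counts correlated with r = 0.996 across genes, and their difference was 3.36 times the sampling noise (chi-square per degree of freedom), against a median of 112 over all pairs, a measure that grows with depth. It was lower in 24 other pairs, in each of which the smaller library had at most 2545 counts, against 992097 for this pair. Whether these are separate neurons or 1 amplified product under 2 names cannot be told from the values. Their excess over sampling noise does not settle this, because that noise covers counting error alone. Both libraries were kept as deposited, and several results that rest on them are also given without them, without neuron 11 or with them averaged. Both also fail the study's exclusion rule as applied here to the counts, a maximum of 7 for log2(count + 1) summed over *Slc32a1*, *Gad1* and *Gad2*, with 8.09 and 8.13. Applied in this way the rule left 83 neurons, 44 Pyr←LP and 39 Pyr←ORBvl, which is not the set of neurons that the study kept. Both had about the same member levels, with 9231 and 9339 *Arc* reads and 6932 and 7368 *Nr4a1* reads. Without them, the ratio of mean CPM, Pyr←ORBvl over Pyr←LP, went from 3.18 to 1.81 for *Nr4a1* and from 1.39 to 1.04 for *Arc*. It went from 2.71 to 2.31 for *Npas4*, from 1.20 to 1.10 for *Egr1* and from 4.50 to 4.71 for *Bdnf*. The median of prefix 823 without neuron 11 was 15739 CPM.

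The comparison between the types asked whether any of the 10 genes differed with the identity of the L5 Pyr. Neurons that share a prefix may not be independent, so the counts of each type were summed per prefix, which gave 16 Pyr←LP and 15 Pyr←ORBvl sums. Raw counts were summed, so neurons with more counts weigh more in a sum, and some sums hold only 1 neuron. The sums were tested with edgeR's quasi-likelihood test over 7508 genes. Of all the genes tested, 0.0533% were called at an adjusted p under 0.05 and more than 2-fold, and of the 10 members 0 were called. No member had an unadjusted p under 0.05 in edgeR or in DESeq2 on the same sums, where 3.86% and 6.06% of all genes had one and DESeq2 called 0.346% of the genes and 0 members. All 10 members had an adjusted p of 0.999 with edgeR. When neurons rather than sums were the unit in edgeR, 1.57% of the genes were called and again 0 members, with 3 members (*Npas4*, *Bdnf* and *Nr4a1*) at an unadjusted p under 0.05 beside 9.56% of all genes.

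Among the members, *Bdnf* had the smallest p. Its TMM-scaled level in the sums ranged from 0 to 299 CPM in Pyr←LP, with a median of 12.3 and 10 of 16 sums above 0, and from 0 to 768 CPM in Pyr←ORBvl, with a median of 283 and 13 of 15 sums above 0. The ranges overlapped, and the median Pyr←ORBvl sum lay just under the highest Pyr←LP sum. The log2 fold change was 1.81 ± 0.97 (SE), Pyr←ORBvl over Pyr←LP, with an unadjusted p of 0.0664 that was the 362nd smallest of the 7508 genes (edgeR). In 11 of the 14 prefixes that hold both types, Pyr←ORBvl neurons had the higher mean CPM. In single neurons *Bdnf* was detected in 38.3% of Pyr←LP (95% Wilson interval 25.8 to 52.6%) and 56.8% of Pyr←ORBvl neurons (42.2 to 70.3%), and after thinning to 100000 counts in 42.1% and 52.9%. *Bdnf* was also the member whose level followed the number of detected genes most closely across the 91 neurons (Spearman's rho 0.53), and that number had a median of 3241 in Pyr←LP and 3981 in Pyr←ORBvl neurons; the part of this in the *Bdnf* values was not tested. Across the 32 alternative settings its log2 fold change stayed between 1.51 and 3.54 and its adjusted p between 0.107 and 1.00. Its unadjusted p was under 0.05 in 11 of them, among them both limma fits, the fits on neurons, and those without prefix 727, 823 or 902.

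*Npas4*, *Nr4a1* and *Ier2* followed in the size of the estimate, and none was called. *Npas4* sums ranged from 0 to 282 CPM in Pyr←LP (median 9.17) and from 0 to 634 CPM in Pyr←ORBvl (median 111), with a log2 fold change of 1.66 ± 1.18 (SE). Without prefix 907 this was 2.46, without prefix 913 it was 1.28, and with limma on log2(FPKM + 1) it was 0.63. *Nr4a1* sums ranged from 0 to 1604 CPM (median 122) and from 0 to 4280 CPM (median 245), with a log2 fold change of 1.34 ± 0.84. This estimate depended on prefix 823, which holds neuron 11: it was 0.68 without that prefix, 0.78 with neurons 5 and 11 averaged, 0.34 under the exclusion rule, and 2.03 without prefix 902. *Ier2* had the only sizeable estimate in the other direction, -1.03 ± 0.72, with sums of 2.71 to 2237 CPM in Pyr←LP (median 299) and 0 to 776 CPM in Pyr←ORBvl (median 227), and it was -0.52 without prefix 919.

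*Fos*, *Junb*, *Arc* and *Egr1* had estimates smaller than their standard errors. The log2 fold change was 0.20 ± 0.50 (SE) for *Fos*, 0.19 ± 0.51 for *Junb*, 0.05 ± 0.64 for *Arc* and -0.06 ± 0.57 for *Egr1*. On the FPKM values, limma gave larger estimates for *Fos* (1.14 with a pseudocount of 1 and 1.45 with 0.1) and *Junb* (0.95 and 1.29), with adjusted p of 0.668 to 0.773. In these sums *Fos* had medians of 1154 CPM in Pyr←LP and 1676 CPM in Pyr←ORBvl, *Junb* of 839 and 1107 CPM, *Arc* of 1009 and 695 CPM, and *Egr1* of 1529 and 1445 CPM. The estimate was 0.15 ± 1.23 for *Fosb* and -0.31 ± 0.86 for *Homer1*, the scaffold gene. The direction of *Arc*, *Egr1*, *Fosb*, *Homer1* and also *Nr4a1* turned under some of the alternatives, so no direction can be given for them. The standard errors, 0.50 to 1.23 on the log2 scale, leave room for differences of 2-fold or more in most members, and these data do not show that the types express the genes alike.

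**Figure D3:**
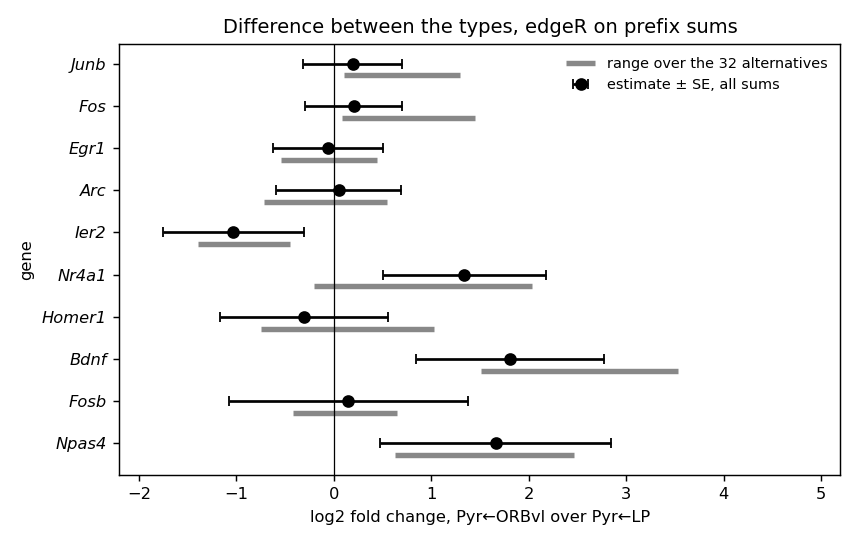
Points are log2 fold changes (Pyr←ORBvl over Pyr←LP) of the 10 genes from edgeR on 16 Pyr←LP and 15 Pyr←ORBvl prefix sums, with bars of 1 SE; grey lines span the estimates under the 32 alternative settings. *Bdnf* (1.81) has the largest estimate and *Ier2* (-1.03) the lowest, and no gene was called.

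None of the other activity-regulated genes tested was called between the types. Of a list of 49 such genes, among them further Egr and Nr4a family members and dual-specificity phosphatases, 39 were tested with edgeR on the sums and 0 were called in either direction, with 1 at an unadjusted p under 0.05. DESeq2 on the sums and edgeR on neurons called 0 of 39 and 0 of 40 as well, with 4 and 7 genes at an unadjusted p under 0.05, beside the 6.06% and 9.56% of all genes given above. Their median log2 fold change was 0.04, against 0.17 for the 10 members and -0.02 for all genes tested. The smallest p of this list belonged to *Nptx2*, a secreted pentraxin that gathers AMPA receptors, with a log2 fold change of -3.50 ± 1.32 (SE; edgeR adjusted p = 0.943). *Nrn1*, which encodes the membrane-anchored neuritin, had -1.60 ± 0.81, and *Arl5b*, a small GTPase, had 2.32 ± 1.21. Of 23 genes upstream of the response, such as CREB and MEF2 factors and the calcium- and MAP-kinase routes to them, 17 were tested on the sums and 0 were called by edgeR or DESeq2, with 0 at an unadjusted p under 0.05 in both. Their median log2 fold change was -0.59, with 13 estimates below 0 and 4 above, beside 3826 below and 3682 above over all genes tested. This split was not tested. The 3 with the smallest p were *Camkk1* (1.54 ± 1.15), *Ppp3ca*, a catalytic subunit of calcineurin (-0.70 ± 0.56), and *Camkk2* (-1.53 ± 1.24). *Creb1*, the gene of CREB itself, had too few counts in the sums to pass the filter. It was detected in 5 of 47 Pyr←LP and 14 of 44 Pyr←ORBvl neurons, and edgeR on neurons, which counts neurons of 1 prefix as independent, called it (log2 fold change 3.84 ± 0.98, adjusted p = 0.0136). So did edgeR on the sums with no filter (4.53 ± 1.62, adjusted p = 0.0265), a setting that called 3985 of 18674 genes. *Creb1* is named because these fits called it, after its values were seen.

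Within single neurons the members tended to vary together. Over the 91 neurons, Spearman's rho of log2(CPM + 1) had a median of 0.23 over the 45 pairs of members, with a range of -0.04 to 0.52, and 42 of the 45 were above 0 and 18 above 0.3. Of the pairs of a member and any other gene ranked, 64.3% were above 0 and 1.85% above 0.3. The highest value joined *Egr1* and *Nr4a1* (0.52). Among the 4129 other genes detected in at least 30 neurons, *Nr4a1* was the gene most like *Egr1* and *Egr1* the gene most like *Nr4a1*. *Junb* and *Egr1* followed (0.52), with *Egr1* first among all genes for *Junb* and *Junb* second for *Egr1*. Without neuron 11 the order of these 2 pairs turned, with 0.507 for *Egr1* and *Nr4a1* and 0.519 for *Junb* and *Egr1*. *Arc* and *Egr1* (0.47) and *Fos* and *Egr1* (0.44) came next, so *Egr1* was a partner in each of the 4 closest pairs. These values are descriptions over neurons that share prefixes and differ in depth, and no test was made of them.

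**Figure D4:**
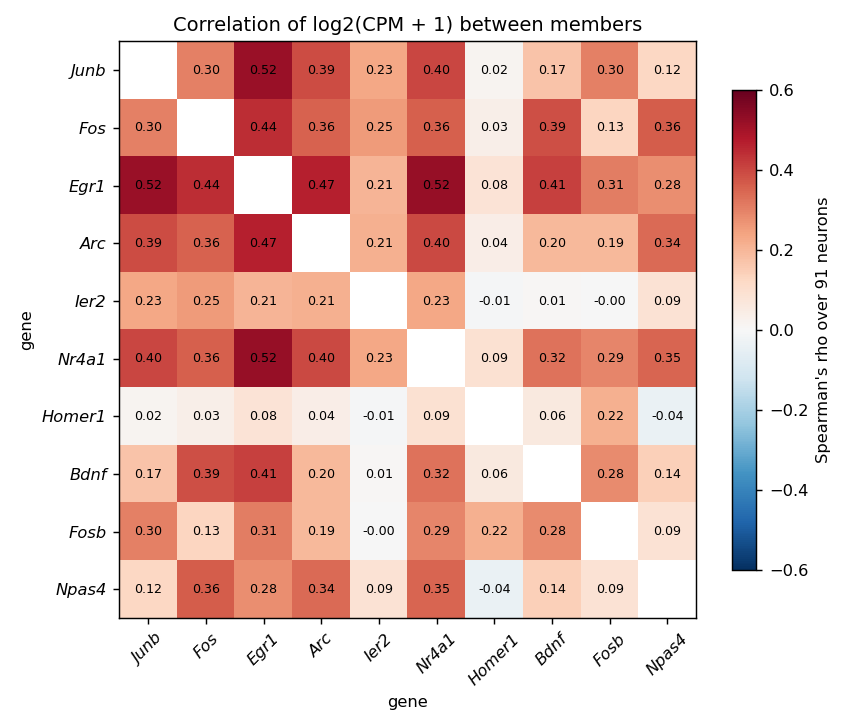
Colours and numbers give Spearman's rho of log2(CPM + 1) between members over the 91 neurons, with genes in order of level per length. *Egr1* has the highest values, up to 0.52, and the row of *Homer1* stays at or below 0.22.

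*Homer1* and *Ier2* had no partner among the members above 0.3. The highest rho of *Homer1* with another member was 0.22 (*Fosb*) and its median was 0.04. *Ier2* reached 0.25 with *Fos*, and its median was 0.21. By contrast, the median over the other members was 0.41 for *Egr1*, 0.36 for *Fos* and 0.35 for *Nr4a1*, beside medians over all 4129 other genes of 0.08, 0.04 and 0.06. For *Bdnf* the corresponding medians were 0.20 and 0.14, the closest of any member, and for *Homer1* 0.04 and -0.03. *Npas4* was closest to *Fos* (0.36), *Nr4a1* (0.35) and *Arc* (0.34), and *Bdnf* to *Egr1* (0.41) and *Fos* (0.39). Members of the AP-1 dimer were not the closest partners of each other, with 0.30 for *Fos* and *Junb*, 0.30 for *Fosb* and *Junb* and 0.13 for *Fos* and *Fosb*.

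Most of the correlations were lower within prefixes. With the mean of each prefix removed, the median over the 45 pairs was 0.16, and 9 pairs rather than 18 were above 0.3. The value fell for 34 pairs and rose for 11, among them *Nr4a1* with *Npas4* (0.35 to 0.43). *Egr1* with *Nr4a1* kept 0.45 and *Junb* with *Egr1* 0.45, while *Arc* with *Egr1* went to 0.25 and *Fos* with *Junb* to 0.10. The median was 0.22 within Pyr←LP and 0.21 within Pyr←ORBvl neurons. Single pairs differed more, as with *Egr1* and *Nr4a1* (0.31 in Pyr←LP and 0.71 in Pyr←ORBvl) or *Fos* and *Npas4* (0.20 and 0.54), and the difference was not tested. The Pyr←ORBvl values include both neurons 5 and 11, which had 6987 and 6906 CPM of *Nr4a1*.

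The mean of log2(CPM + 1) over the members, ranked against 4120 other genes, was most like *Mxi1* (rho 0.55), *Gadd45g* (0.52), *Cdc42ep3* (0.51), *Egr4* (0.51) and *Tubb4b* (0.51). *Gadd45g* and *Egr4* are activity-regulated genes of the list above, and *Mxi1* encodes a repressor of the Myc network. The member mean itself had a rho of 0.48 with the number of detected genes, and these genes had such a relation too, with 0.49 for *Mxi1*, 0.58 for *Cdc42ep3* and 0.59 for *Tubb4b*, beside 0.41 for *Egr4* and 0.26 for *Gadd45g*. The summed CPM of the members, which the most abundant of them set, had a rho of 0.16 with that number. Of the other activity-regulated genes that could be ranked, 14 of 28 had a rho above 0.3 with the member mean, among them *Btg2* (0.45), *Dusp6* (0.44), *Cyr61* (0.40) and *Egr2* (0.38), beside 5.90% of all 4120 genes. Other genes of the same list were low, as with *Atf3* (0.05) and *Nrn1* (0.02). None of the 14 upstream genes that could be ranked was above 0.3, and the highest was *Camkk1* (0.22).

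Markers of the labelled cell were present, with *Snap25* in all 91 neurons and *Slc17a7*, the vesicular glutamate transporter of cortical excitatory neurons, in 71. Reads of glial markers were also common. At least 1 of 5 microglial markers had a read in 83 neurons, with a summed level of 0 to 8850 CPM in Pyr←LP and 0 to 4784 CPM in Pyr←ORBvl neurons, and *C1qa* alone in 34 of 47 and 40 of 44. At least 1 of 5 oligodendrocyte markers had a read in 90 neurons (0 to 12967 and 2.81 to 23604 CPM), mostly from *Mbp* and *Mobp*, while *Mog* was read in 1 neuron and *Mag* in 3. The 5 astrocyte markers together had a read in 34 neurons (0 to 1943 and 0 to 1003 CPM), the 6 GABAergic markers in 44 (0 to 1239 and 0 to 2518 CPM) and the 4 endothelial markers in 4 (0 to 208 and 0 to 194 CPM). The summed level of each of these 5 lists had a rho between -0.04 (microglia) and 0.16 (GABAergic) with the member mean over the 91 neurons, and the astrocyte list had 0.25 within Pyr←LP and -0.19 within Pyr←ORBvl neurons. Immediate early genes are inducible in glia too, and the part of RNA from other cells in the member levels was not tested.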

How the data were processed

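The authors drew up the soma and nucleus of each recorded neuron, amplified the mRNA with a kit based on Smart-seq2, aligned the reads to GRCm38 with STAR 2.5.3, removed PCR duplicates and counted unique reads on RefSeq genes, without strand and without molecular identifiers. They deposited these raw counts per gene and, separately, FPKM values, whose method is not given in the sources used here. Total counts per neuron were 2410 to 1948982 (median 423999), with 1015 to 11013 detected genes.

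Here counts were summed per recording prefix and type and tested in R 4.3.3 with edgeR 4.0.16, using TMM factors and its robust quasi-likelihood test. P-values were adjusted by Benjamini-Hochberg over every gene that reached 5 counts in 10 or more sums. A gene was called at an adjusted p under 0.05 and more than 2-fold. SEs were derived from the F statistic (the estimate over the root of F). Whether same-prefix sums of the types deviate together was checked over all genes tested. The correlations were -0.0391 to 0.0998, so the prefix was not used as a block, and the reported fit treats the sums as independent. That check was not made for the members alone. With the block, on the 14 prefixes with both types, *Bdnf* went from 1.81 to 3.48 and *Nr4a1* from 1.34 to -0.18, while *Junb* went from 0.19 to 0.12. The p-values measure the spread between prefixes, which may be technical, since no mouse is named. Alternatives used neurons as the unit, a prefix block, DESeq2 1.42.0, limma 3.58.1 on log2(FPKM + 1) or log2(FPKM + 0.1), other filters and neuron sets, and each prefix left out. FPKM gives no depth. The fit was tested on simulated data: with the spread estimated here it recovered a minority of the changed genes and called few unchanged ones, so a gene that was not called may still differ. Named genes were all 10 members, the called genes and the 3 with the smallest p of each list, and the 5 most like the member mean; further genes named as examples were chosen after their values were seen. The members and lists were chosen with earlier results of these data known. Electrophysiological recordings were not used here.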

Additional observations from a re-analysis of the deposited data

How the results depend on the processing

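None of the 10 members was called under any of the 32 alternatives. The number of genes called, 4 in the reported fit, was 130 with neurons as the unit, 174 with neurons and the recording prefix as a replicate block, 106 with neurons as the unit and neurons 5 and 11 averaged (chosen after seeing the data), 26 with DESeq2, 3985 without a filter, 2 with filterByExpr and 1 with limma on log2(FPKM + 1) or log2(FPKM + 0.1). The prefix sums with the prefix as a block called 3 genes. Leaving out each prefix in turn gave 1 to 4 genes, with 2 without prefix 823, 914 or 919 and 1 without prefix 916. The median number of members detected per Pyr←LP neuron was 5 with a minimum of 5 counts, against 7.

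Directions turned for 5 members, and for *Fos*, *Junb*, *Npas4*, *Ier2* and *Bdnf* they did not. In the prefix sums with that block, log2 fold changes were -0.42 for *Fosb*, -0.45 for *Arc*, -0.18 for *Nr4a1* and 0.97 for *Homer1*. With neurons 5 and 11 averaged as well (chosen after seeing the data), the blocked values were -0.29, -0.50, -0.20 and 1.03. With neurons as the unit and the prefix as a block they were -0.71 for *Arc*, -0.046 for *Nr4a1* and 0.31 for *Homer1*. *Egr1* was 0.44 with neurons as the unit, 0.35 with neurons 5 and 11 averaged in that fit, 0.10 without a filter, 0.047 with filterByExpr, 0.050 under the exclusion rule of the methods and 0.19 in neurons with at least 100000 counts. *Fosb* was -0.16 and *Homer1* 0.040 in neurons with at least 100000 counts. *Arc* was -0.19 under the exclusion rule, -0.14 with neurons 5 and 11 averaged, -0.067 with limma on log2(FPKM + 1) and -0.045 with log2(FPKM + 0.1), where *Homer1* was 0.14 and 0.37. With prefixes as written (spellings with and without a hyphen kept apart), *Fosb* was -0.0043 and *Arc* -0.00062. Leaving out each prefix in turn gave -0.27 to 0.65 for *Fosb*, -0.31 to 0.34 for *Arc*, -0.12 to 0.26 for *Egr1* and -0.47 to 0.22 for *Homer1*. The cause was not tested. Of 80 recomputed shares of neurons with a member's read, 70 lay within the 95% interval of the reported share, and the 10 others all came from the minimum of 5 counts. Low counts per neuron and wide spread between prefixes limit what these values can resolve.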
